A study of Arabidopsis thaliana with 18 samples.

Results

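LHCB4.2, LHCB4.3 and RCA are 3 nuclear genes of photosynthesis, chosen by their symbols in the platform annotation from the 13350 genes that had a probe set of their own, and each was measured by 1 probe set. LHCB4.2 (AT3G08940) and LHCB4.3 (AT2G40100) are paralogs that encode CP29, a minor antenna protein of photosystem II. RCA (AT2G39730) encodes Rubisco activase.

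Transcripts were measured in petioles, the leaf stalks, of Arabidopsis thaliana accession Col-0 on 18 Affymetrix ATH1 arrays in 6 groups of 3. In the density experiment, plants 37 d old had grown in a canopy of 2066 plants per m2 or as single plants, and each array held the pooled petioles of 4 plants, 2 young petioles per plant. In the light experiment, single plants 29 d old were harvested after 24 h of altered light. The treatments were a lowered ratio of red to far-red light (low R:FR), a lowered amount of blue light (low blue), both together (combined), and control light. All groups shared the earlier growth chamber, with days of 9 h at 180 µmol/m2/s and nights of 15 h, until an age of 28 d. Whether each light replicate was its own pool of plants is not stated, so their p-values measure the spread between these samples, which may be technical. The spread of each probe set was estimated from all 18 arrays together, so this limit also reaches the p-values of the density experiment. By its title the series asks how R:FR and blue light signalling enter competition at high plant density.

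Leaves shaded by neighbours receive less red and less blue light but keep much of the far-red, and plants read these changes through phytochromes and cryptochromes. CP29 sits between the photosystem II core and the outer antenna trimers and passes excitation energy inward. Its LHCB4.1 and LHCB4.2 forms are the common ones in leaves, while LHCB4.3 encodes a form shortened at its C-terminus whose transcript is known to be favoured in high light. Rubisco activase uses ATP to free the active sites of Rubisco from bound sugar phosphates, and its gene is a classical light-induced gene of green tissue.

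All levels are log2 values, in which a step of 1 is a doubling of signal. Array medians lay between 1.59 and 1.65, the highest single value was 11.39, and correlations within groups ran from 0.9781, for control light replicates 1 and 3, to 0.9939. RCA averaged 11.02 over the 18 arrays, with only 3 of 22746 probe sets above it, so RCA sat at the top of the scale. Levels of different probe sets are not compared, since each has its own binding strength. Probe sequences were not used here, so cross-binding between the LHCB4 transcripts was not tested. A change in petiole RNA cannot tell fewer cells of a type apart from less transcript per cell. In the platform annotation, 1 of 5 photosynthetic mesophyll markers had a probe set of its own, PRK, with a mean level of 8.98. Of the phloem markers it was 1 of 5, SWEET11, at 1.29, close to the array medians.

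**Figure D1:**
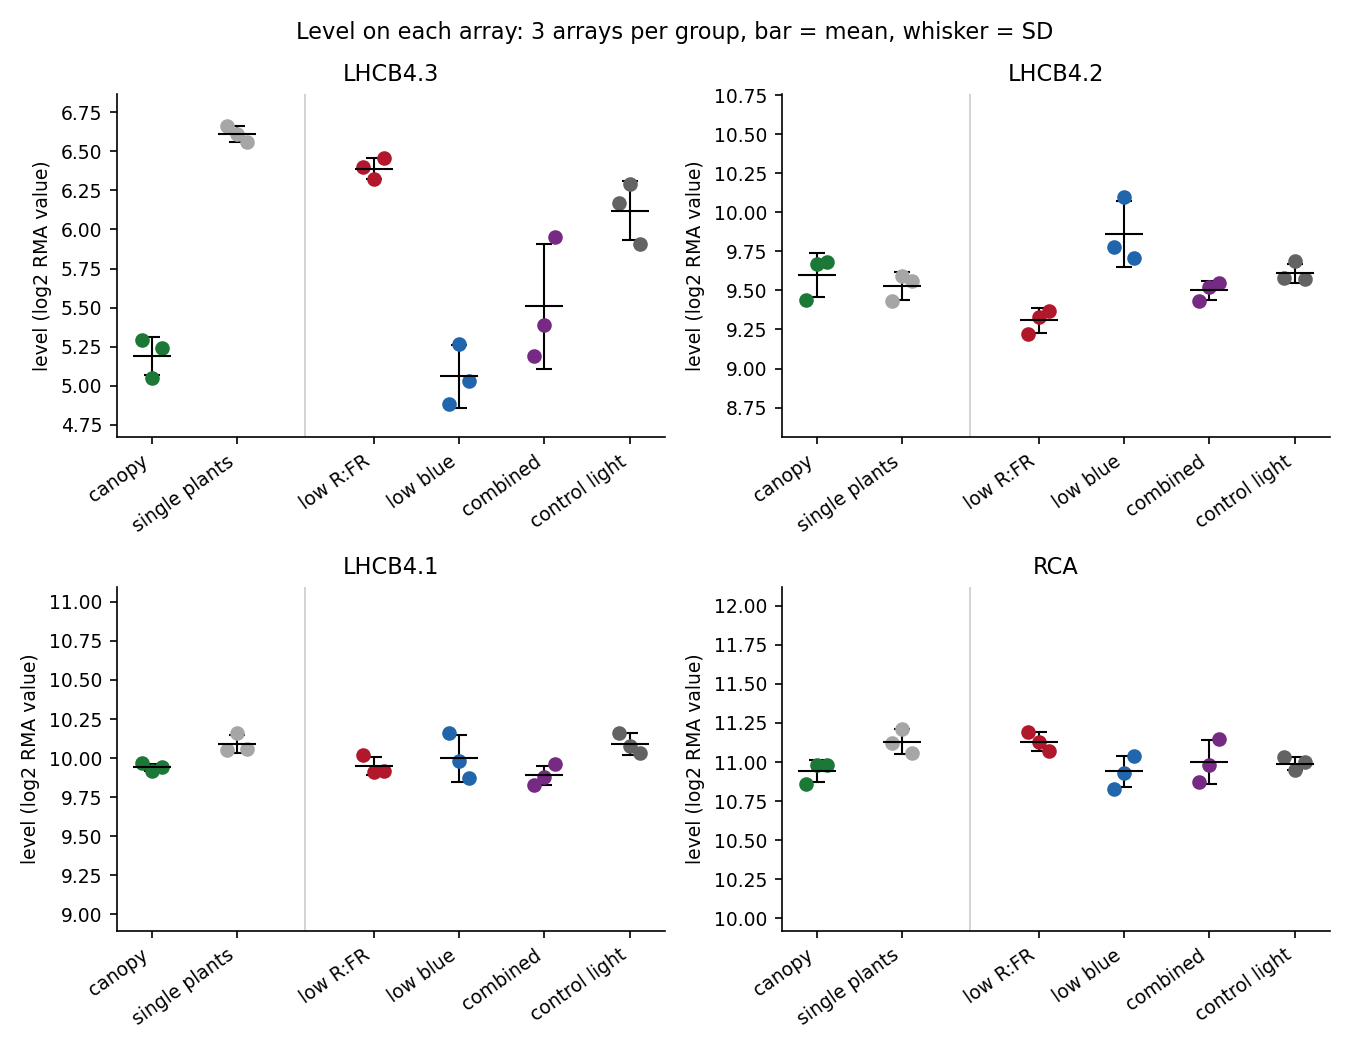
Log2 level (vertical axis, each panel spanning the same range) of LHCB4.3, LHCB4.2, LHCB4.1 and RCA on every array, by group. Points are arrays, bars are means and whiskers are SDs of 3 arrays. LHCB4.3 spans 4.88 to 6.66, with canopy and low blue at the bottom, while RCA stays between 10.83 and 11.21.

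LHCB4.3 was the member that moved with crowding. Its level was 5.29, 5.05 and 5.24 on the canopy arrays, against 6.66, 6.61 and 6.56 on the single plant arrays. The groups were far apart, with every canopy array more than a log2 unit below every single plant array. The change was -1.42 ± 0.16 (log2, standard error from limma), or 2.67-fold lower in the canopy, with an adjusted p of 6.7e-05. Here and below a gene is called at an adjusted p under 0.05 over all 22746 probe sets. LHCB4.3 was the 1 member of 3 called in this comparison, in which 4.26% of all probe sets were called. By p it stood at position 34 among all probe sets, and 93 probe sets, or 0.409%, fell by at least as much.

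LHCB4.2, the other CP29 paralog, had 9.44, 9.67 and 9.68 in the canopy, against 9.43, 9.59 and 9.56 in single plants. These ranges overlapped, and the change was 0.07 ± 0.1 with a 95% interval from -0.15 to 0.29 (adjusted p = 0.87). RCA had 10.86, 10.98 and 10.98 in the canopy, against 11.12, 11.21 and 11.06 in single plants. All 3 canopy arrays lay below the single plant arrays, as for 9.98% of all probe sets, but the change of -0.19 ± 0.09 was not called (adjusted p = 0.35). After quantile normalization it was -0.09 (adjusted p = 0.81).

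The mesophyll marker PRK had -0.16 ± 0.13 in the canopy and was not called (adjusted p = 0.69). All its canopy arrays lay below the single plant arrays, as for 9.98% of all probe sets. Of the markers of other cell types, 1 guard cell gene and 1 root gene were called between the density groups. Over all probe sets 4.26% were called there. The guard cell list had 3 of 5 genes measured, and its summed linear signal ran from 9.03 to 11.1 in the canopy, against 16 to 35 in single plants. CHX20, a cation/proton exchanger gene of guard cells, fell by 2.1 ± 0.36 (adjusted p = 0.0023), while FMA and SPCH, transcription factor genes of the stomatal lineage, had changes of -0.24 ± 0.14 and -0.03 ± 0.1 and were not called. The root list, with 2 of 3 genes measured, summed to 9.46 to 15 in the canopy, against 3.6 to 8.42 in single plants. In it PYK10 rose by 1.69 ± 0.45 (adjusted p = 0.041), while EXPA7 had -0.04 ± 0.12 (adjusted p = 0.95). The phloem marker SWEET11 had -0.02 ± 0.11 (adjusted p = 0.97) and the senescence marker SAG29 -0.37 ± 0.1 (adjusted p = 0.055). The part of these cell types in the fall of LHCB4.3 was not tested. Most of these markers were dim. Over the 18 arrays SPCH averaged 0.98, EXPA7 1.1, SWEET11 1.29, SAG29 1.3, FMA 1.75 and PYK10 1.76, beside array medians of 1.59 to 1.65. PYK10 had 3.21 ± 0.43 in the canopy and 1.52 ± 1 in single plants (SD). CHX20 averaged 2.83. Changes at such low levels say little about cell types.

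The blue light deficit gave LHCB4.3 a similar level. It stood at 4.88, 5.27 and 5.03 in low blue, against 6.17, 6.29 and 5.91 in control light. Again no array of one group reached the other, as for 5.37% of all probe sets in this direction. The change was -1.07 ± 0.16, or 2.09-fold lower, with an adjusted p of 0.0045. LHCB4.3 was the 1 member called, against 0.58% of all probe sets, and 58 probe sets fell by as much. The guard cell sums overlapped, with 9.46 to 13.3 in low blue, against 12.7 to 21.3 in control light. No guard cell marker was called there. CHX20 had -0.81 ± 0.36 (adjusted p = 0.49), FMA -0.05 ± 0.14 and SPCH -0.17 ± 0.1. The part of guard cells in the change of LHCB4.3 was likewise not tested. With control light replicate 2 as the only control array, a setting added once the values were known, the change was -1.24 (adjusted p = 0.056). In a fit of these 6 arrays alone the adjusted p was 0.1, and just 1 probe set of all was called there.

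In the same comparison LHCB4.2 lay the other way. It had 9.78, 10.1 and 9.71 in low blue, against 9.58, 9.69 and 9.57 in control light. All low blue arrays were higher, by a narrow margin, as for 6.27% of all probe sets. The change of 0.25 ± 0.1 was not called (adjusted p = 0.44), and without low blue replicate 2 it was 0.13. RCA had 10.83, 10.93 and 11.04 in low blue, against 11.03, 10.95 and 11 in control light, a change of -0.06 ± 0.09 (adjusted p = 0.93).

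Low R:FR alone called none of the 3 members, with 0.866% of all probe sets called by limma and 2674 at an unadjusted p under 0.05. LHCB4.3 had 6.4, 6.32 and 6.46 in low R:FR, against the 6.17, 6.29 and 5.91 of control light, a change of 0.27 ± 0.16 (adjusted p = 0.54). All its low R:FR arrays were higher, narrowly, as for 7.58% of all probe sets. Without control light replicate 3 the change was 0.17 (adjusted p = 0.92), and with control light replicate 2 as the only control array it was 0.1 (adjusted p = 0.98). LHCB4.2 had 9.22, 9.33 and 9.37 in low R:FR, against 9.58, 9.69 and 9.57 in control light. All 3 low R:FR arrays were lower, as for 8.58% of all probe sets. The change was -0.31 ± 0.1 (unadjusted p = 0.0097, adjusted p = 0.23). RCA had 11.19, 11.13 and 11.07 in low R:FR, against 11.03, 10.95 and 11 in control light, with a change of 0.14 ± 0.09 that was not called (adjusted p = 0.6).

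**Figure D2:**
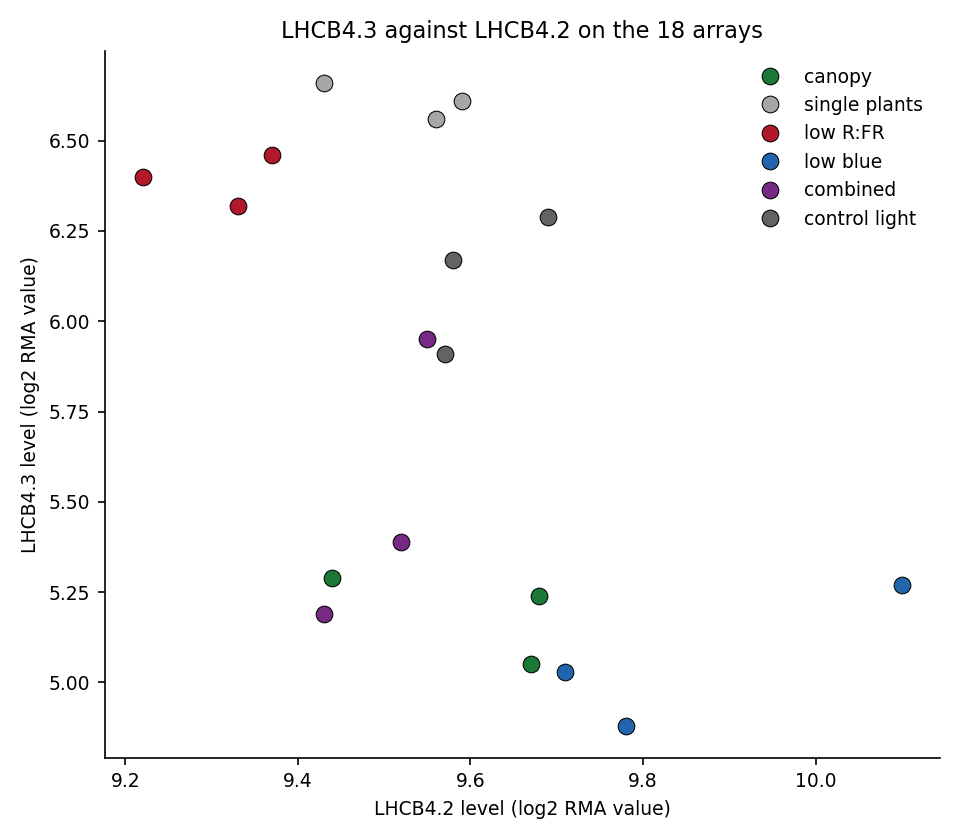
LHCB4.3 level (vertical axis) against LHCB4.2 level (horizontal axis) on the 18 arrays, both as log2 values, coloured by group. Low R:FR arrays lie at the upper left and low blue arrays toward the lower right, while canopy and single plant arrays share a LHCB4.2 range of 9.43 to 9.68 and differ in LHCB4.3.

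Set directly against each other, the single light treatments separated both paralogs, in opposite directions. LHCB4.3 was higher in low R:FR (6.32 to 6.46) than in low blue (4.88 to 5.27), by 1.34 ± 0.16 or 2.53-fold (adjusted p = 8.1e-05). LHCB4.2 was lower in low R:FR (9.22 to 9.37) than in low blue (9.71 to 10.1), by a log2 change of -0.55 ± 0.1 or 1.47-fold (adjusted p = 0.0046). So 2 of the 3 members were called, where 4.39% of all probe sets were. Arrays that did not overlap were found in 9.15% of probe sets in the direction of LHCB4.3 and in 11.6% in that of LHCB4.2. The LHCB4.2 change kept its call with each array left out (highest adjusted p = 0.027), while a fit of the 6 arrays alone gave 0.052. RCA was not called, at 0.19 ± 0.09 (adjusted p = 0.29), although its low R:FR arrays all lay above its low blue arrays.

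With both deficits at once the mean level of LHCB4.3 lay between those of low blue and control light. The combined arrays had 5.19, 5.39 and 5.95. The third of them overlapped control light and the first overlapped low blue, so the groups were not separate on either side. The change against control light was -0.61 ± 0.16, just outside the threshold (adjusted p = 0.054), and none of the 3 members was called, with 2.26% of all probe sets called and 2868 at an unadjusted p under 0.05. This value was borderline, and 2 of the 6 leave-outs passed the threshold. Without combined replicate 3 the change was -0.83 (adjusted p = 0.0034), and without control light replicate 3 it was -0.72 (adjusted p = 0.049). Against low R:FR, the combined treatment lowered LHCB4.3 by 0.88 ± 0.16 or 1.84-fold (adjusted p = 0.015), the 1 member called where 0.448% of all probe sets were, with arrays that did not overlap, as for 6.71% of probe sets. That call ended in 5 of the 6 leave-outs. The adjusted p was 0.062, 0.055 and 0.087 without low R:FR replicates 1, 2 and 3, and 0.081 and 0.079 without combined replicates 1 and 2. Only without combined replicate 3 was the call kept (change -1.1, adjusted p = 0.0023). Against low blue the change was 0.45 ± 0.16 (adjusted p = 0.24), or 0.23 without combined replicate 3 (adjusted p = 0.57), and 1.28% of all probe sets were called.

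LHCB4.2 in the combined treatment had 9.43, 9.52 and 9.55, between its low R:FR and low blue ranges. These arrays lay below control light, above low R:FR and below low blue without overlap, as for 7.52%, 7.89% and 7.54% of all probe sets. Its change was -0.11 ± 0.1 against control light (adjusted p = 0.75), 0.19 ± 0.1 against low R:FR (0.71) and -0.36 ± 0.1 against low blue (0.13). RCA had 10.87, 10.98 and 11.15 in the combined treatment, spanning the control light range of 10.95 to 11.03. Its change against control light was 0.01 ± 0.09, with an interval from -0.18 to 0.2.

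The 2 single light changes of each gene were summed and set beside the combined one. For LHCB4.3 the sum was -0.8, beside -0.61 measured in combined, and for LHCB4.2 it was -0.06 beside -0.11. For RCA it was 0.08 beside 0.01. The interaction of the 2 deficits was 0.18 ± 0.22 for LHCB4.3 (95% interval -0.29 to 0.66), -0.06 ± 0.15 for LHCB4.2 and -0.07 ± 0.13 for RCA. No probe set at all was called for the interaction by limma (0% of 22746, with 811 at an unadjusted p under 0.05), so departures from additivity within these intervals were not detectable.

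**Figure D3:**
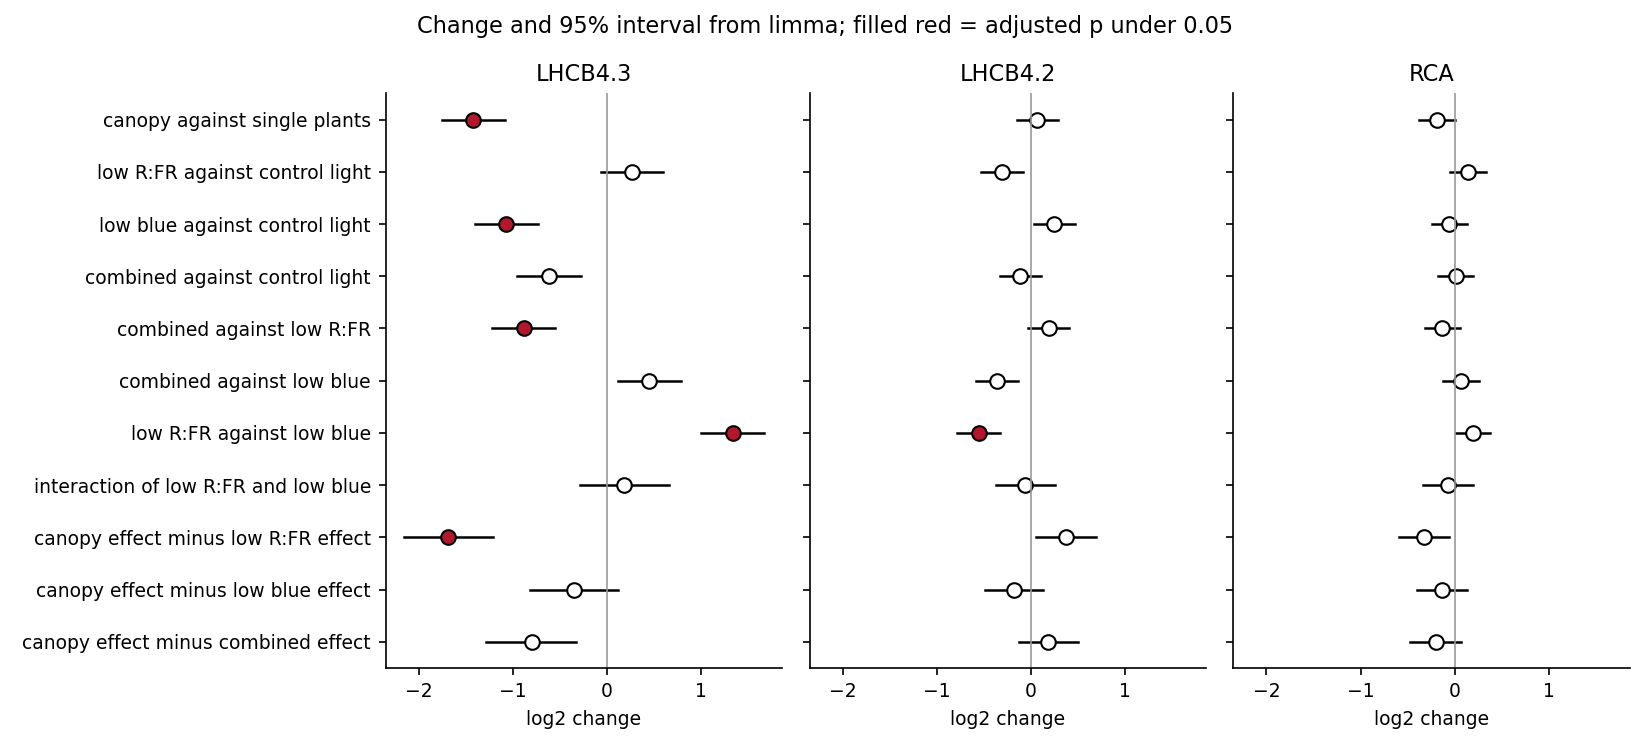
Log2 change (horizontal axis) with its 95% interval from limma for LHCB4.3, LHCB4.2 and RCA in 11 comparisons (rows). Filled points have an adjusted p under 0.05. LHCB4.3 carries 5 filled points, LHCB4.2 carries 1, in low R:FR against low blue, and RCA none.

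The canopy effect was then compared with each light effect. For LHCB4.3 the canopy effect minus the low R:FR effect was -1.69 ± 0.22 (adjusted p = 0.00067), and 2.08% of all probe sets were called. Against the low blue effect the difference was -0.35 ± 0.22, with an interval from -0.82 to 0.12 (adjusted p = 0.83, 0.114% of all probe sets called). Against the combined effect it was -0.8 ± 0.22 (adjusted p = 0.13, 0.8% called). For LHCB4.2 these differences were 0.38, -0.18 and 0.18, and for RCA -0.33, -0.13 and -0.2, none of them called. The canopy and light experiments differed in age and in the length of exposure, so the differences compare experiments as well as cues.

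Between the untreated groups LHCB4.3 also differed in level. Single plants at 37 d had 6.56 to 6.66, against 5.91 to 6.29 in control light at 29 d, a change of 0.49 ± 0.16 that was not called (adjusted p = 0.23, 0.866% of all probe sets called). All 37 d arrays were higher, as for 6.96% of probe sets. The differences of LHCB4.2 and RCA were -0.09 ± 0.1 and 0.14 ± 0.09, not called either. Age and experiment cannot be told apart in this comparison.

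Ordered by level, LHCB4.3 was highest in single plants (6.61 ± 0.05, SD, n = 3), then low R:FR (6.39 ± 0.07), control light (6.12 ± 0.19), combined (5.51 ± 0.4), canopy (5.19 ± 0.12) and low blue (5.06 ± 0.2). The arrays of the first 3 groups were separate from one another, and from control light downward each neighbouring pair overlapped. Such separation held for 7.58% of all probe sets in low R:FR above control light. For single plants above control light the share was 6.96%. For single plants above low R:FR, a pair that crosses the density and light experiments, the share was not computed. LHCB4.2 ran from low blue (9.86 ± 0.21) through control light (9.61 ± 0.06), canopy (9.6 ± 0.14), single plants (9.53 ± 0.09) and combined (9.5 ± 0.06) to low R:FR (9.31 ± 0.08). Only low blue at the top and low R:FR at the bottom were separate from their neighbours, as for 6.27% and 7.89% of all probe sets. For RCA every neighbouring pair overlapped, and its group means differed by 0.19 at most, beside 1.55 for LHCB4.3 and 0.55 for LHCB4.2. RCA and LHCB4.2 were bright, with 3 and 85 of 22746 probe sets above their means, against 2013 for LHCB4.3. Whether bright signals were saturated was not tested, so a small span need not mean a small response.

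The paralogs were put side by side with their different responses already known, so their divergence is described and not tested. On each array the LHCB4.2 value was subtracted from the LHCB4.3 value, and the change of this difference between groups was taken. Canopy arrays gave -4.15, -4.62 and -4.44, against -2.77, -2.98 and -3 for single plants, a shift of -1.49. Low blue arrays gave -4.9, -4.83 and -4.68, against -3.41, -3.39 and -3.66 in control light, a shift of -1.31. In low R:FR the shift was in the other direction, at 0.58, with -2.82, -3.01 and -2.91. In each of these 3 comparisons the arrays of the groups did not overlap, as was already so for LHCB4.3 alone. How often other pairs of probe sets separate in this way was not computed. The combined treatment gave -4.24, -4.13 and -3.6, a shift of -0.5, and overlapped control light. Between low R:FR and low blue the shift was 1.89, larger than that of LHCB4.3 alone (1.34) because LHCB4.2 moved the opposite way.

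LHCB4.1 (AT5G01530), the third CP29 gene, was called in none of the comparisons with control light or single plants. It had 9.97, 9.92 and 9.94 in the canopy, against 10.05, 10.16 and 10.06 in single plants, a change of -0.15 ± 0.08 (adjusted p = 0.5). Its changes were -0.14 in low R:FR, -0.09 in low blue and -0.2 in combined, with no call. Their limma adjusted p-values were 0.57, 0.85 and 0.3. In combined the interval ran from -0.38 to -0.03 (limma unadjusted p = 0.028). The canopy, low R:FR and combined arrays all lay below their reference arrays, as for 9.98%, 8.58% and 7.52% of all probe sets. The low R:FR margin was narrow (10.02 against 10.03), and the low blue arrays overlapped control light. Of all probe sets, 4.26% were called in the canopy, 0.866% in low R:FR, 0.58% in low blue and 2.26% in combined. The group means of LHCB4.1 spanned 0.2, a range like that of RCA. LHCB4.1 was bright too, with 51 of 22746 probe sets above its mean.

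Other genes of photosynthesis were taken from lists by locus. Of 114 genes in 8 lists, 14 had a probe set of their own in the platform annotation. Among them were 3 of 21 antenna genes, all CP29 genes. No photoreceptor, photoprotection or antenna insertion gene was listed there with a probe set of its own. That annotation left 8730 of 22746 probe sets unlisted, so the array may still hold probe sets for these genes. Another 9 genes were added from the wording of the gene table. Besides the 3 members and the regulator HYH, this left 19 genes. Of these 19, 1 was called lower in the canopy, 1 lower in low R:FR and 1 higher in low blue. In combined 0 were called by limma, where the lowest unadjusted p was 0.0041, for TAAC. The shares called over all probe sets were 4.26%, 0.866%, 0.58% and 2.26% in these 4 comparisons. The median changes of the 19 genes were -0.09, 0.07, -0.05 and -0.02, while the median over all probe sets stayed within 0.01 of 0.

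Among Calvin cycle genes, SBPASE, of sedoheptulose bisphosphatase, had a level of 8.48 ± 0.13 in low R:FR, against 7.93 ± 0.28 in low blue, and rose by 0.55 ± 0.13 (adjusted p = 0.023). PRK, of phosphoribulokinase, had a change of 0.44 ± 0.13 there (adjusted p = 0.076). The photosystem subunit genes PSBW, PSBY, PSAE-1 and PSAN had canopy changes of -0.09, -0.12, -0.07 and 0.06, and none was called in a light treatment. PORB, of chlorophyll synthesis, fell by 1.11 ± 0.22 in low R:FR (adjusted p = 0.018) and rose by 1.04 ± 0.22 in low blue (adjusted p = 0.042), with -0.19 in the canopy and -0.4 in combined, not called. For HYH, a bZIP factor of light signalling, the level rose in low R:FR, by 1.41 ± 0.29 (adjusted p = 0.028), and had -1.26 ± 0.29 in low blue (adjusted p = 0.063), with -0.15 in the canopy and 0.66 in combined, not called.

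**Figure D4:**
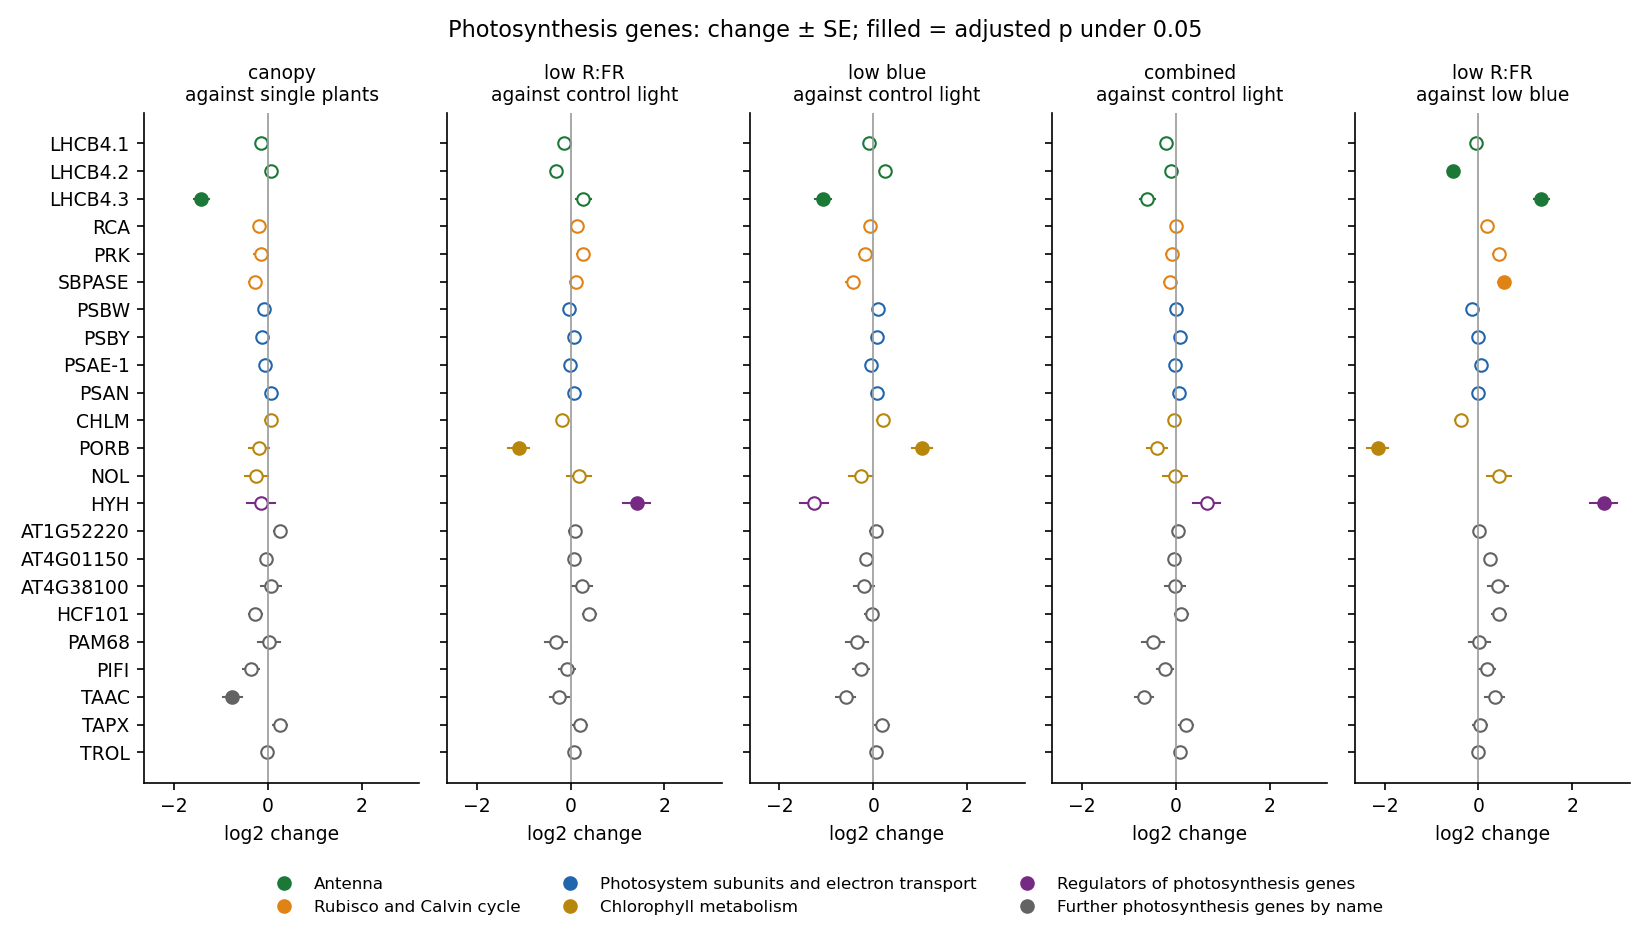
Log2 change ± standard error (horizontal axis) of the 23 photosynthesis genes with a probe set of their own, in 5 comparisons (panels), coloured by list. Filled points have an adjusted p under 0.05. LHCB4.3, PORB and HYH carry the wide changes, and most other genes lie near 0.

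Across the 18 arrays, the genes with the most similar profiles were sought among 3516 others with a mean level of at least 3. Arrays of a group share their treatment, so these correlations are descriptions. LHCB4.3 was most similar to AT1G06000 (Pearson r = 0.96, and 0.99 over the 6 group means), which changed by -2.06 in the canopy and -1.29 in low blue. AT3G44450, ALDH11A3, an aldehyde dehydrogenase gene, and AT2G37240 followed with r = 0.87 each, and AT3G03770 with 0.86. The most opposed was AT1G25230 (r = -0.9), which changed by 1.47 in the canopy and 1.48 in low blue, followed by AT3G15450 and AT5G44020 with r = -0.87 each.

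LHCB4.2 was most similar to AT1G51400 (r = 0.96), which was called lower in low R:FR, at -0.63 (adjusted p = 0.018). AT2G34620, AT3G01490, AT3G47560 and AT2G42780 followed with r = 0.9, 0.87, 0.83 and 0.82. Its most opposed genes were CYTC-2, of cytochrome c (r = -0.83), MGL, of methionine gamma-lyase (r = -0.82), and AT4G29590 (r = -0.81). The last was also among the genes most similar to RCA (r = 0.78), together with DJ1D (0.83), AT3G24190 (0.8), AT1G78995 (0.78) and AT5G62140 (0.77). RCA was most opposed by AT1G48160, AT3G53990 and AT5G59410, with r from -0.78 to -0.75.

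**Figure D5:**
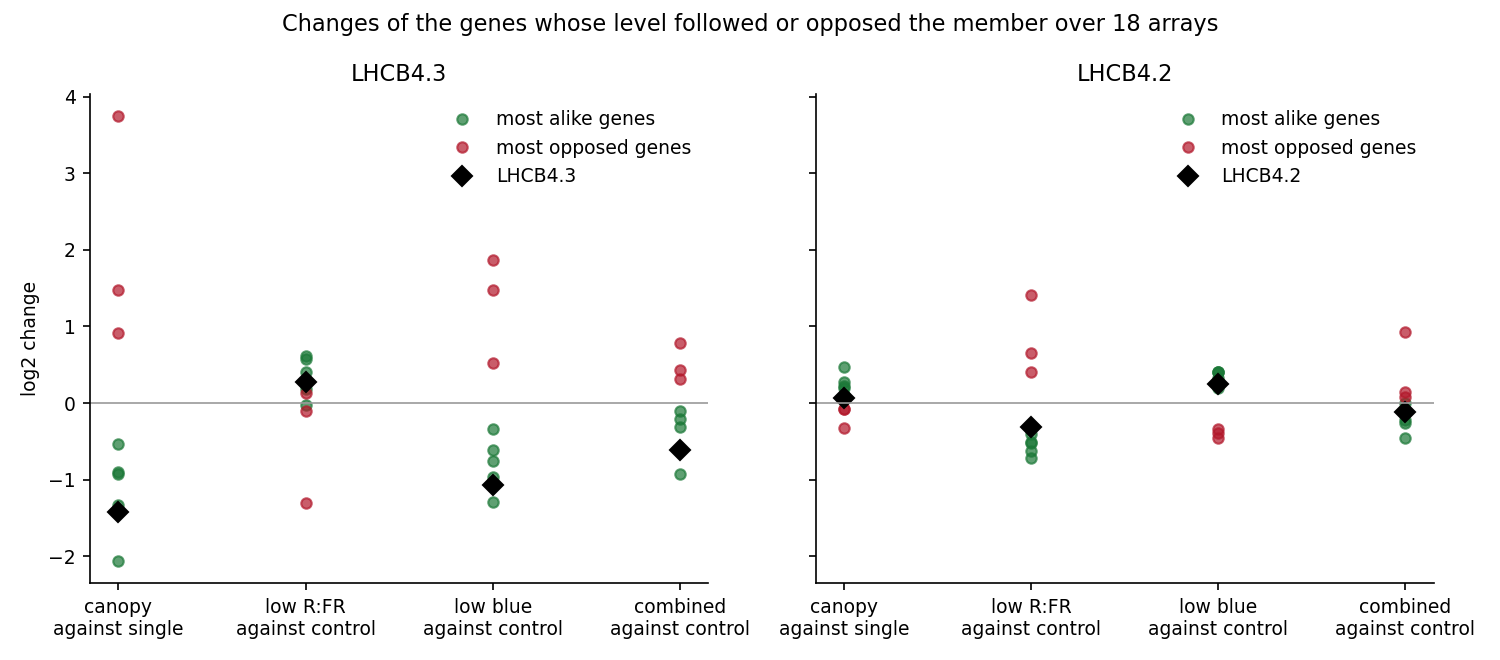
Log2 change (vertical axis) against each control in the 4 treatments (horizontal axis) for LHCB4.3 and LHCB4.2 (diamonds), the 5 genes most similar to each (green) and the 3 most opposed (red) over 18 arrays. The similar genes lie on the diamond's side of 0 in the canopy and low blue for LHCB4.3, and AT3G15450 is the red point at 3.75. The similar genes were picked by correlation over these same arrays, so their shared side is no separate finding.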

How the data were processed

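Expression was measured on 18 one-colour ATH1 arrays, from 100 ng of RNA each. The values used are the log2 expression values of 22810 probe sets that the authors deposited, which the submitters' processing notes credit to RMA. Which software ran it, and on which arrays at once, is not given in the sources used here. RMA compresses differences of dim probe sets. After 64 control probe sets were set aside, 22746 were tested. Of these, 13513 had 1 gene in the platform annotation, 503 had several genes or an unclear entry, and 8730 were not listed. For a gene with several probe sets, the one with the highest mean was used.

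A single limma model (version 3.58.1, R 4.3.3) held all 18 arrays and the 6 group means. Its eBayes step had 12 residual and 4.41 prior degrees of freedom. P-values, all two-sided, were adjusted per comparison (Benjamini-Hochberg) over all probe sets. The fit was tested on simulated data. The values after ± are limma standard errors for changes and SDs of 3 arrays for levels. The number of arrays limits the precision.

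The members and lists were chosen with earlier results of these data known. Named genes are the members, the 5 most similar and 3 most opposed profiles of each, and the called genes of each list or its largest change. The other list genes named in the text were chosen after their values were seen.

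Replicate numbers recur in all groups. Same-numbered arrays of different groups had correlated deviations from -0.417 to 0.335, so the numbers were not taken as pairs. Alternatives were quantile normalization, median centring, fits of the compared groups alone, an intensity trend, array weights, a filter at a mean of 3, the replicate block and leaving out each array.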

Additional observations from a re-analysis of the deposited data

Results flagged for a closer look

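The change of LHCB4.3 in the canopy differed from its change in low R:FR. The canopy effect minus the low R:FR effect was -1.69 ± 0.22 (limma adjusted p = 0.00067), where 2.08% of all probe sets were called. The interval ran from -2.16 to -1.21, and the value lay between -1.77 and -1.58 over the 12 leave-outs. Every canopy array lay below every single plant array, as for 9.98% of all probe sets. Every low R:FR array lay above every control light array, as for 7.58%, but narrowly (6.32 against 6.29). The low R:FR change itself, 0.27 ± 0.16, was not called (limma adjusted p = 0.54). For LHCB4.3 the canopy effect minus the low blue effect was -0.35 (adjusted p = 0.83) and minus the combined effect -0.8 (0.13), neither called. The experiments differ in plant age and in exposure, so cue and experiment cannot be told apart.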

How the results depend on the processing

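Over 564 recalculations of 36 member results, 544 kept their direction and side of the threshold, and for 28 results all did. In fits of the compared groups alone the calls ended for LHCB4.2 in low R:FR against low blue (-0.55, adjusted p = 0.052) and for LHCB4.3 in low blue (-1.07, 0.1) and in combined against low R:FR (-0.88, 0.07). With control light replicate 2 as the only control array, added after seeing the data, LHCB4.3 in low blue was -1.24 (0.056), and the lone array was assumed to vary like the other groups. LHCB4.3 in combined against control light passed with array weights (-0.66, 0.028) and with the filter on dim probe sets (-0.61, 0.034). Its leave-outs ran from -0.83 to -0.45, and those of combined against low R:FR from -1.1 to -0.72. Signs turned only in values that were not called. The LHCB4.2 interaction was 0.02 after quantile normalization and with control light replicate 2 alone, with leave-outs from -0.13 to 0.06. The leave-outs of the LHCB4.3 interaction ran from -0.04 to 0.34, of RCA in combined against control light from -0.06 to 0.08 and of RCA in combined against low blue from -0.01 to 0.13. The cause was not tested. The replicate block changed no call of a member (LHCB4.3 in the canopy -1.42, adjusted p = 0.00016), and it moved no count of called probe sets by over 1.5 times (1083 with the block in the canopy comparison). Averaging probe sets of a gene was not run, since each member has 1. Counts over all probe sets moved more. They ran from 554 to 1225 in the canopy, from 37 to 472 in low R:FR, from 1 to 180 in low blue, from 112 to 681 in combined, from 52 to 200 in combined against low R:FR, from 124 to 339 in combined against low blue and from 569 to 1173 in low R:FR against low blue. They ran from 0 to 1 for the interaction, from 185 to 763, 3 to 77 and 31 to 284 for the canopy effect minus the low R:FR, low blue and combined effects, and from 0 to 267 between the untreated groups. RCA lies near the top of the scale, LHCB4.1 and LHCB4.2 are also bright, and whether their signals were saturated was not tested.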

Other observations

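Thylakoid genes added from the wording of the gene table gave 1 call in the 4 treatments. It was in the canopy, where 4.26% of all probe sets were called. TAAC, of the thylakoid ATP/ADP carrier, fell by 0.76 ± 0.2 in the canopy (limma adjusted p = 0.043), with a level of 2.38 ± 0.18 in the canopy and 3.14 ± 0.32 in single plants (SD, n = 3). It had -0.59 ± 0.2 in low blue and -0.68 ± 0.2 in combined, and neither was called (adjusted p = 0.27 and 0.11). These levels are low on the array scale, where differences are compressed. The thylakoid curvature genes AT4G01150 (CURT1A), AT1G52220 (CURT1C) and AT4G38100 (CURT1D) had canopy changes of -0.04, 0.25 and 0.07, none called. PIFI, HCF101 and PAM68 had -0.36, -0.27 and 0.02 there, and TAPX, of thylakoid ascorbate peroxidase, had 0.26.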
